A study of Mus musculus with 12 samples.

Results

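Genes of protein folding, quality control and stress signalling in the endoplasmic reticulum (ER), 35 in all, were followed across 12 RNA-seq libraries of mouse B16-F10 melanoma cells. Members were picked by symbol, by a rule that used no measured value but with earlier results of these data known, and all 35 were found among the 23022 genes listed. By role they fall into a group of 4 made up of the 3 stress sensors and the transcription factor *Xbp1*, 10 chaperones and co-chaperones, 5 enzymes of oxidative folding, 12 genes of ER-associated degradation, and 4 genes of translocation into and export from the ER. Of these, 34 passed the filter on low values, at least 1 TPM (a unit that scales reads by transcript length and library total) in at least 3 libraries. *Derl3*, a derlin of the degradation pathway, did not: it ran from 0 to 0.728 TPM and was not tested.

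The ER folds, glycosylates and disulfide-bonds proteins bound for the cell surface or for secretion, MHC class I molecules among them. When unfolded protein builds up, the sensors ATF6, IRE1 and PERK start the unfolded protein response, which lowers translation and raises transcription of chaperones, folding enzymes and the machinery of ER-associated degradation, by which misfolded proteins are drawn back into the cytosol for the proteasome. Melanocytic cells make large amounts of glycosylated pigment enzymes through this route.

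The cells came from 1 Cas9-expressing clone of B16-F10, a melanoma line from a black mouse, so every group carried Cas9 and a lentiviral guide construct. Cells with a control guide (NTC, which the labels spell "No template control" and the study calls non-targeting) or with paired guides against *Mbnl1* and *Mbnl2* (DKO) were left unstimulated or were given IFNγ at 1 ng/mL over 24 h, with 3 libraries in each of the 4 groups. *Mbnl1* and *Mbnl2* encode RNA-binding regulators of splicing. The labels do not say whether the sequenced DKO cells were clonal, but the study's text places these experiments in a polyclonal population, before its single-cell derived lines were made. Such a population can hold unedited alleles, and residual protein was visible on the study's western blots. Nothing in the labels says that the 3 libraries of a group came from separate cultures, so p-values measure the spread between these libraries, which may be technical.

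The targeted genes were lower in DKO but far from absent: *Mbnl1* averaged 56.5 ± 0.756 TPM in untreated NTC and 42.1 ± 1.65 TPM in untreated DKO libraries (SD, n = 3), and *Mbnl2* 103 ± 4.12 and 89.1 ± 1.68 TPM. RNA of an edited gene need not be lost, so this check of the labels is partial. Of 7 genes tested as a check of the cytokine, 6 rose with IFNγ in NTC and in DKO cells, by 1.14 to 2.83 and by 0.93 to 2.55 on the log2 scale. The 7 melanocyte markers were present in every library, with a summed level of 16647 to 18642 TPM in NTC and 11124 to 12413 TPM in DKO libraries; the part of this difference in the results that follow was not tested. Leukocyte, keratinocyte, endothelial and fibroblast markers summed to at most 4.41 TPM in any library, and 4 of 6, 4 of 4, 3 of 4 and 2 of 6 of them were at 0 throughout, the fibroblast sum being 1.74 to 2.70 TPM in NTC and 3.53 to 4.41 TPM in DKO. The listed TPM summed to 844185 to 874612 in NTC and 805782 to 827191 in DKO libraries, and size factors from the median gene ran only from 0.991 to 1.01. Bulk RNA cannot tell fewer cells that make a transcript from less RNA per cell, which holds for every value given here.

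Part of the set carries in its promoters the letters through which ATF6 and XBP1 are known to act, and these are shown because ATF6, XBP1 and the genes they are known to induce are members. RefSeq promoter windows (GRCm38.p6, 250 bases before to 50 after the transcript start) were held for 28 of the 35 members. The letters searched on both strands were the ER stress response element ERSE (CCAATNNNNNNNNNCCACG), ERSE-II (ATTGGNCCACG), and the unfolded protein response element UPRE with either last letter (TGACGTGG or TGACGTGA). TGACGTGG holds CGTGG, the reverse complement of one end of ERSE. ERSE stood in 8 members' windows and in 0.119% of all 32851 windows, ERSE-II in 2 members and 0.0365%, TGACGTGG in 2 members and 0.676%, and TGACGTGA in 1 member and 0.441%. *Hspa5*, the gene of the chaperone BiP, held both ERSE and TGACGTGA. The 250 bases before its start (chr2:34771840-34772089, plus strand) follow, with TGACGTGA, then CCAAT and CCACG of ERSE, in capitals.
*Hspa5*: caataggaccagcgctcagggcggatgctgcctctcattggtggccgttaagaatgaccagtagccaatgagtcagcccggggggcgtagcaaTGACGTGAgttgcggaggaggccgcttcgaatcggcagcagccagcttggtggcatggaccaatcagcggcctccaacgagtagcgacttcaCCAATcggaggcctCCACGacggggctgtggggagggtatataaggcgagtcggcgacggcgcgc

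ERSE in further members is given with 15 flanking bases on each side, read along the gene's own strand, and capitals mark the fixed letters. Where the element lies on the other strand it reads CGTGG, 9 bases, ATTGG.
*Creld2* (chr15:88819505-88819553, plus strand): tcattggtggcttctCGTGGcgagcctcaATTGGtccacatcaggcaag
*Pdia6* (chr12:17266476-17266524, plus strand): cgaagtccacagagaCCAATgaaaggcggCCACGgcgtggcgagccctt
*Syvn1* (chr19:6046517-6046565, plus strand): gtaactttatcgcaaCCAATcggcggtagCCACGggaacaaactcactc
*Ero1lb* (chr13:12565667-12565715, plus strand): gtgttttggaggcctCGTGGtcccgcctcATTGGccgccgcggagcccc
*Dnajc3* (chr14:118937812-118937860, plus strand): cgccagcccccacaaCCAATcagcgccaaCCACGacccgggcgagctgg
*Hsp90b1*, the farther from the start of its 2 elements (chr10:86705623-86705671, minus strand): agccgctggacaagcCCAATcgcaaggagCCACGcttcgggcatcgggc
*Hsp90b1*, the nearer (chr10:86705518-86705566, minus strand): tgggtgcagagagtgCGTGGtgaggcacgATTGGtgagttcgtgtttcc

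The first 4 of these lines belong to genes called higher in DKO cells in at least 1 of the 2 comparisons below, and the last 3 to *Dnajc3* and *Hsp90b1*, called in neither. *Herpud1* is shown because it holds ERSE-II and yet was lower in DKO cells, and *Sec24d* because it holds the UPRE and was higher.
*Herpud1*, ERSE-II in capitals (chr8:94386362-94386402, plus strand): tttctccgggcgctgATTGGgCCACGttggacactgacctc
*Sec24d*, UPRE in capitals (chr3:123267455-123267492, plus strand): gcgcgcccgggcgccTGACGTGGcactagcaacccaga

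A match in these windows is a description of letters, and binding was not measured. *Dnajb11* (ERSE-II, wholly past the transcript start), *Derl3* (ERSE) and *Vcp* (TGACGTGG) held the remaining matches.

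In untreated NTC cells the folding enzymes and the large chaperones were the most abundant members on the TPM scale, which is per length of transcript. *P4hb*, the classical protein disulfide isomerase, led with 687, 750.4 and 735 TPM in the 3 libraries. *Hsp90b1*, which encodes the ER HSP90 GRP94, followed with 666, 719 and 711 TPM, and these 2 ranges overlapped. *Ero1l*, whose oxidase renews the disulfides of the isomerases, came next with 569.9, 498 and 543 TPM, followed by *Hspa5* with 430.3, 480.4 and 469 TPM, each range below the one before it. Among the sensors *Atf6* had 48.3, 40.3 and 42.5 TPM, and the other two lay near the bottom of the order: *Ern1*, the gene of IRE1, had 17.4, 14.5 and 14.9 TPM and *Eif2ak3*, the gene of PERK, 13.3, 14.99 and 15.5 TPM, 2 ranges that overlapped. Of the tested members only *Ero1lb*, the second ER oxidase, lay below them, with 1.98, 2.18 and 1.93 TPM. The median member was at 64.4 TPM over the 12 libraries and the median tested gene at 20.1 TPM. The spread between libraries of a group was small: the median coefficient of variation of the members was 5.15% in untreated NTC, 2.50% in NTC with IFNγ, 3.43% in untreated DKO and 4.67% in DKO with IFNγ. Replicate 1 of untreated NTC was the lowest of its 3 in 23 of 34 members, and replicate 3 of DKO with IFNγ the highest of its 3 in 20 of 34.

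**Figure D1:**
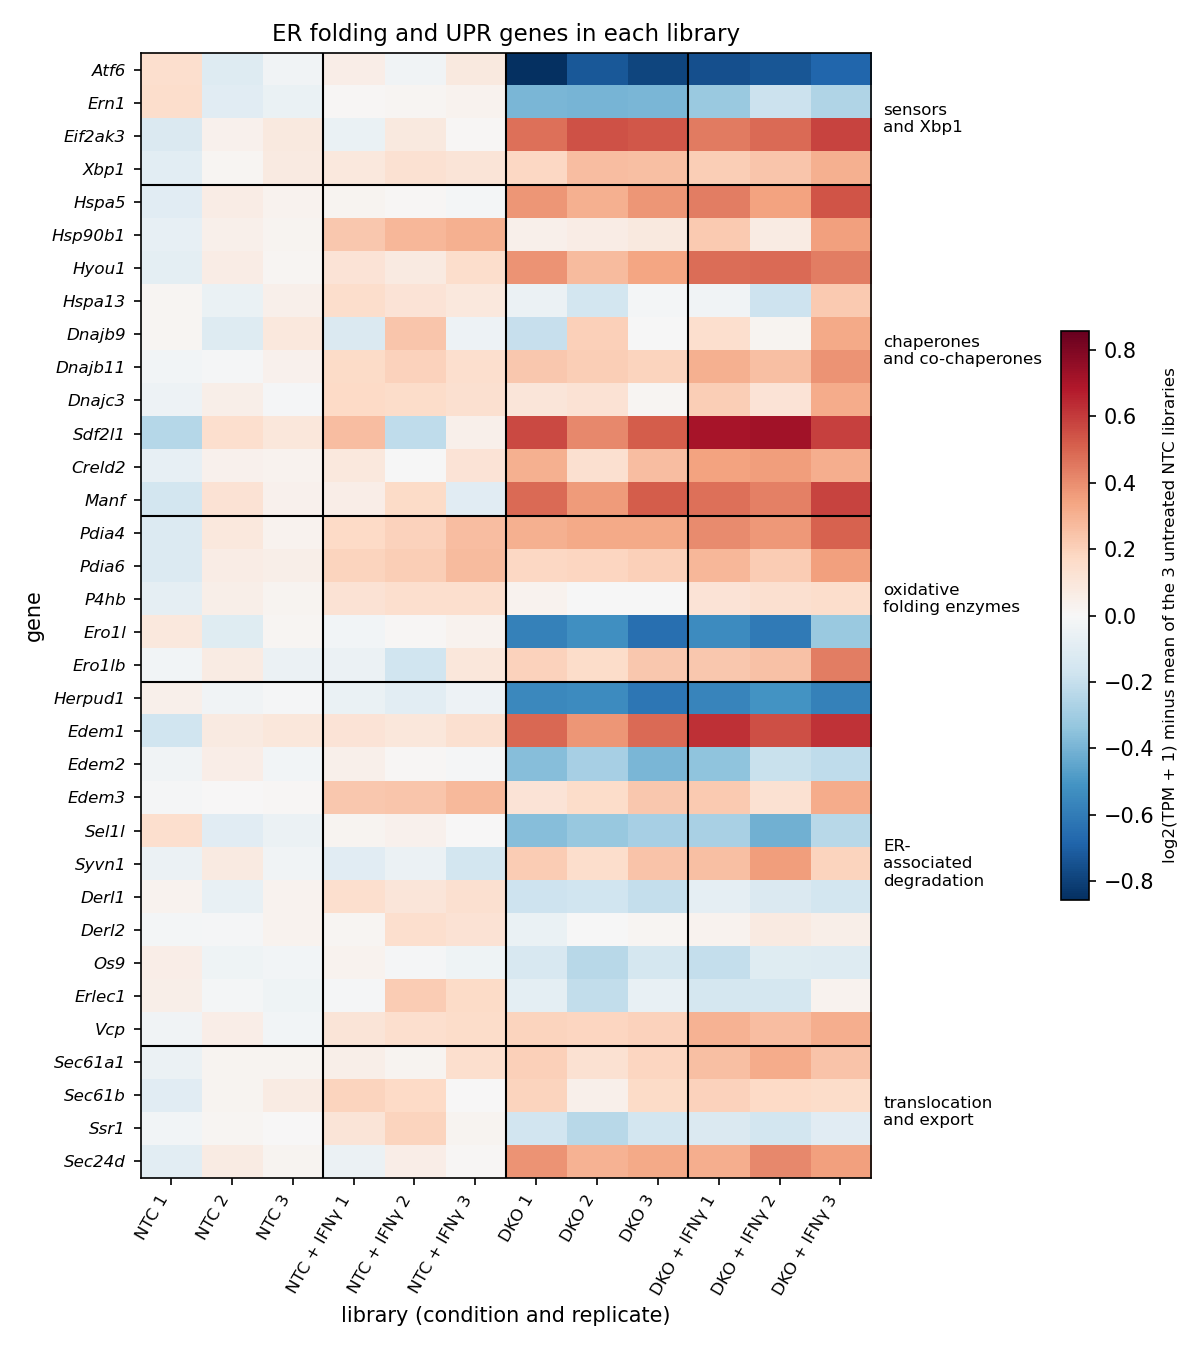
Each row is 1 of the 34 tested genes, grouped by role, and each column 1 of the 12 libraries; colour gives log2(TPM + 1) minus the mean of the 3 untreated NTC libraries, red for higher and blue for lower. The columns divide by genotype, with *Atf6*, *Ero1l* and *Herpud1* blue and *Edem1*, *Sdf2l1*, *Manf* and *Eif2ak3* red in all 6 DKO libraries.

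DKO cells were compared with NTC cells without and with IFNγ, in libraries that the 2 comparisons do not share. Whether a difference came from losing *Mbnl1* and *Mbnl2* or from something else that set the guide-transduced cells apart was not tested. Of the chaperone group *Hspa5*, *Hyou1*, *Sdf2l1*, *Manf*, *Dnajb11* and *Creld2* rose in DKO cells in both comparisons, while the J-domain cofactors *Dnajb9* and *Dnajc3* of BiP were not called and *Sil1*, an exchange factor of BiP outside the 35, fell. The sensors parted, *Atf6* and *Ern1* being lower and *Eif2ak3* higher. Genes of ER-associated degradation split in both directions, with *Herpud1*, *Sel1l* and *Edem2* lower and *Edem1*, *Syvn1* and *Vcp* higher. In the limma fit over all 11663 tested genes, at a Benjamini-Hochberg adjusted p under 0.05, 16 of 34 members (47.1%) were higher and 9 (26.5%) lower without IFNγ, against 17.0% and 19.4% of all tested genes. With IFNγ 15 members (44.1%) were higher and 10 (29.4%) lower, against 19.5% and 23.9%. The median difference of the members was 0.15 on the log2(TPM + 1) scale without and 0.059 with IFNγ, beside -0.0055 and -0.013 over all tested genes. The value with IFNγ was 0.145 at the same listed total (0.066 over all genes) and 0.11 with the trend of GC content and length removed. It was 0.0998 without replicate 2 of DKO with IFNγ, but only 0.0427 without replicate 3 of that group. When libraries were rescaled to the same listed total, the higher share of all calls moved from 46.7% to 60.7% without and from 44.9% to 65.3% with IFNγ, while the members stood at 17 higher and 8 lower in both. In both comparisons 14 members were called higher and 9 lower, none in opposite directions, and 31 of 34 had the same sign. The matching counts over all tested genes were not made, so this agreement is not shown to be particular to the members. *Pdia6* and *Edem3* were called higher without IFNγ only, *Ero1lb* (higher) and *Erlec1* (lower) with IFNγ only, and whether these differ between the 2 comparisons is the response test given further on. The 7 called in neither were *Hsp90b1*, *Hspa13*, *Dnajb9*, *Dnajc3*, *P4hb*, *Derl2* and *Sec61b*.

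**Figure D2:**
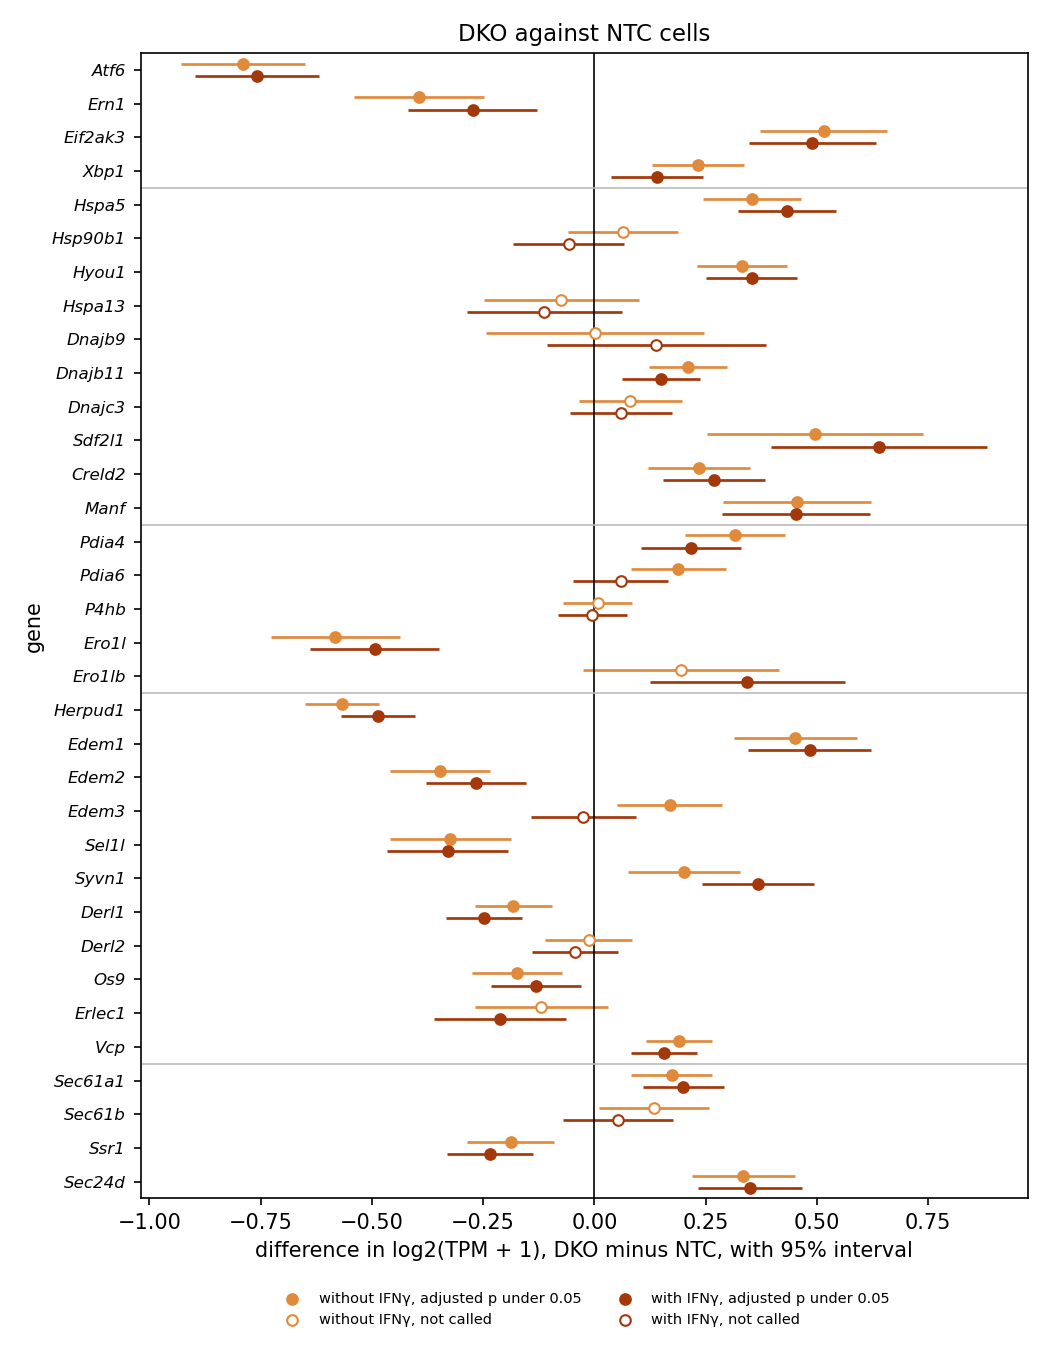
Difference in log2(TPM + 1) between DKO and NTC cells for each tested gene (points) with its 95% interval (lines), without IFNγ in orange and with IFNγ in brown; filled points have an adjusted p under 0.05 in limma. The largest differences are those of *Atf6* (-0.79 and -0.76) on the lower and of *Sdf2l1* (0.50 and 0.64) and *Eif2ak3* (0.52 and 0.49) on the higher side.

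All 4 genes of the sensor group were called in both comparisons. Among all tested genes 17.0% were called higher and 19.4% lower without IFNγ, and 19.5% and 23.9% with it. *Atf6* (chr1:170704674-170867771, minus strand, GRCm38) encodes a transcription factor anchored in the ER membrane that is cut free in the Golgi. It was at 48.3, 40.3 and 42.5 TPM in the untreated NTC and 23.6, 25.9 and 24.8 TPM in the untreated DKO libraries. With IFNγ the 3 NTC libraries held 45.4, 42.6 and 46.3 TPM and the 3 DKO libraries 25.5, 25.8 and 26.9 TPM. Every DKO library lay below every NTC library, and the DKO mean was 56.8% of the NTC mean without and 58.2% with IFNγ. On the log2(TPM + 1) scale *Atf6* fell by 0.79 (SE 0.0648, adjusted p = 1.16e-06) and by 0.76 (SE 0.0648, adjusted p = 1.51e-06), the largest fall among the members in either comparison.

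*Ern1* (chr11:106394650-106487852, minus strand) encodes IRE1, the kinase and endoribonuclease that splices *Xbp1* mRNA. Its untreated values were 17.4, 14.5 and 14.9 TPM in NTC cells and 11.6, 11.6 and 11.6 TPM in DKO, and with IFNγ 15.7, 15.7 and 15.9 against 12.3, 13.5 and 12.8 TPM. The groups did not overlap in either comparison, and the gene fell by 0.39 (SE 0.0674, adjusted p = 0.000518) and by 0.27 (SE 0.0674, adjusted p = 0.00543). *Eif2ak3* (chr6:70844515-70905245, plus strand) encodes PERK, the kinase that lowers translation by phosphorylating eIF2α, and went the other way. It had 13.3, 14.99 and 15.5 TPM in untreated NTC and 20.6, 21.8 and 21.5 TPM in untreated DKO libraries, and 14.01, 15.5 and 14.7 against 20.2, 20.8 and 22.3 TPM with IFNγ. All DKO libraries were above all NTC libraries, with differences of 0.52 (SE 0.0658, adjusted p = 5.13e-05) and 0.49 (SE 0.0658, adjusted p = 6.63e-05). *Xbp1* (chr11:5520659-5525893, plus strand) encodes the factor made once IRE1 has spliced its mRNA, and these gene-level values do not separate spliced from unspliced RNA. It rose from 71.9, 77.3 and 80.7 TPM in untreated NTC to 86.6, 92.2 and 91.7 TPM in untreated DKO libraries, a difference of 0.23 (adjusted p = 0.00206). With IFNγ it was at 81.7, 83.8 and 82.8 TPM in NTC cells and 88.9, 90.2 and 94.96 TPM in DKO, again without overlap, and the smaller difference of 0.14 (adjusted p = 0.0306) did not pass when a trend with GC content and length was removed (adjusted p = 0.0737), nor without any 1 of the 3 NTC libraries with IFNγ or replicate 3 of DKO with IFNγ (adjusted p up to 0.0925).

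**Figure D3:**
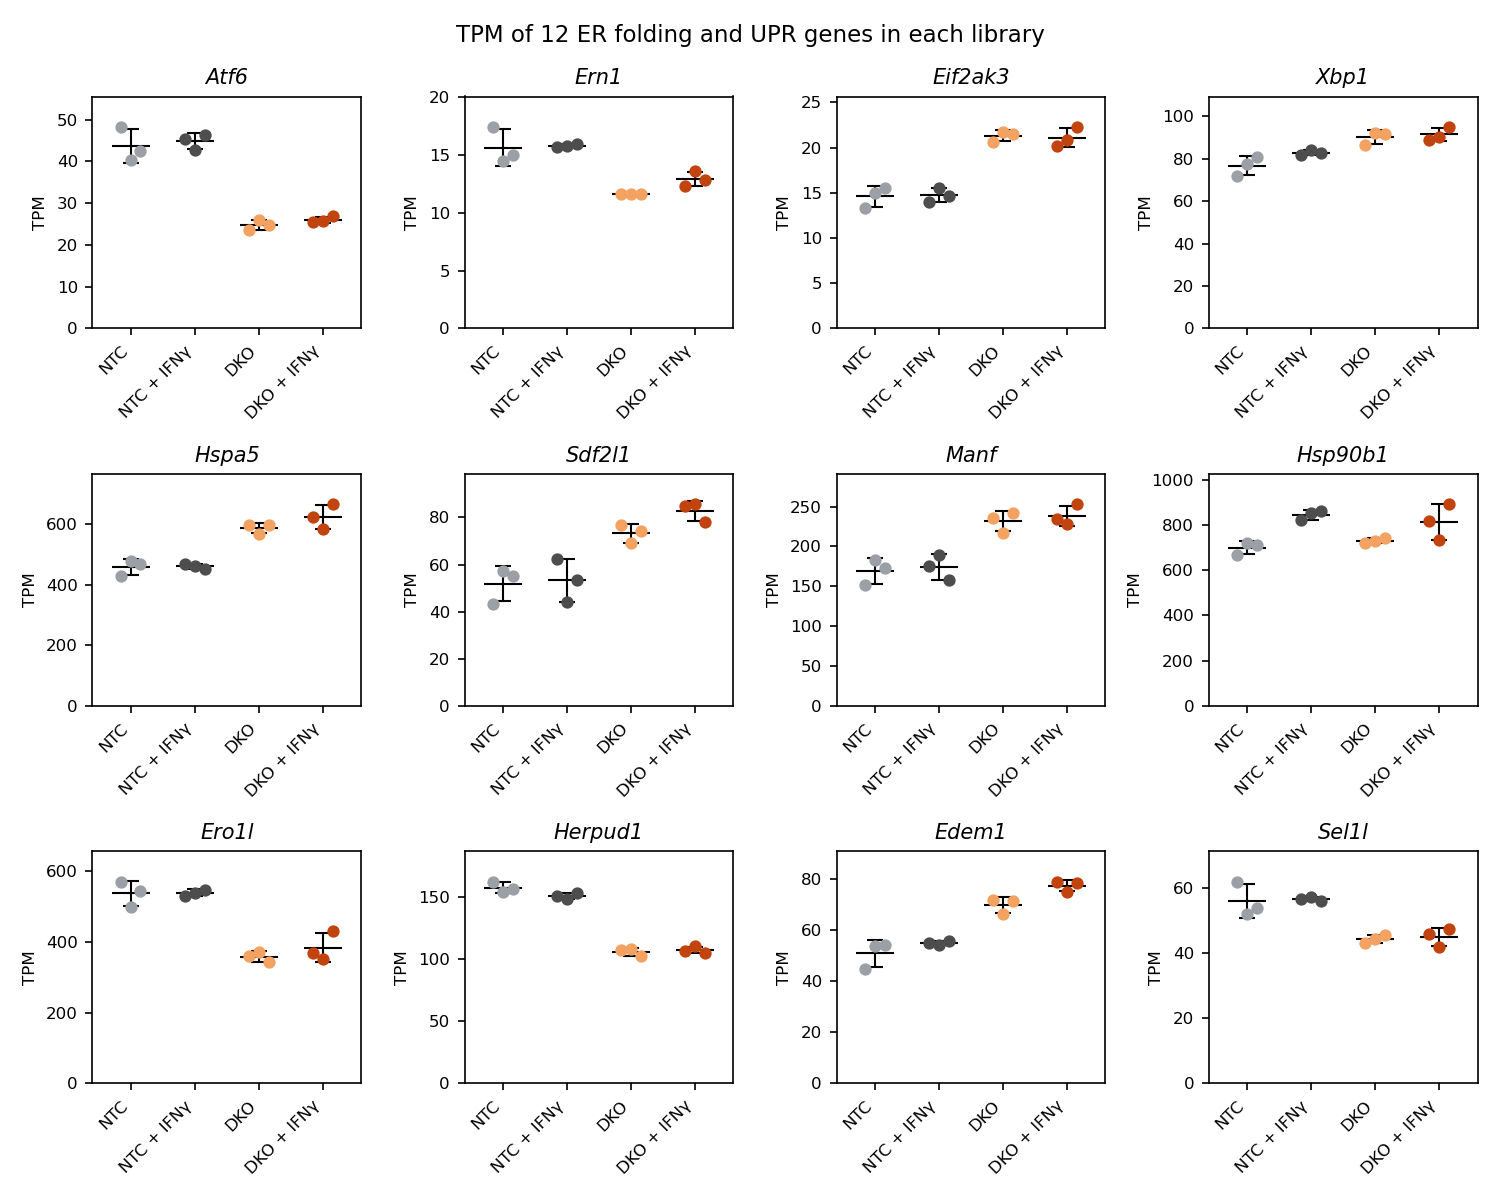
TPM in each library (points) of 12 of the genes, with the mean (wide bar) and SD (n = 3, error bars) of each group; every axis starts at 0. In *Atf6*, *Ern1*, *Ero1l*, *Herpud1* and *Sel1l* all 6 DKO libraries sit below all 6 NTC libraries, and in *Eif2ak3*, *Xbp1*, *Hspa5*, *Sdf2l1*, *Manf* and *Edem1* above them, while *Hsp90b1* overlaps between the genotypes.

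Of 10 chaperones and co-chaperones 6 rose in DKO cells, the same 6 in both comparisons, and none fell. Of all tested genes 17.0% rose and 19.4% fell without IFNγ, and 19.5% rose and 23.9% fell with it. *Hspa5* encodes BiP, the HSP70 that binds nascent chains and holds the 3 sensors inactive. Its libraries read 430.3, 480.4 and 469 TPM in untreated NTC, 468, 463 and 453 TPM in NTC with IFNγ, 597, 568 and 598 TPM in untreated DKO and 623, 585 and 666 TPM in DKO with IFNγ. Every DKO value was above every NTC value, the DKO mean being 128% and 135% of the NTC mean, with differences of 0.35 (SE 0.051, adjusted p = 0.000133) and 0.43 (SE 0.051, adjusted p = 2.14e-05). *Hyou1*, the large HSP70 relative GRP170 that exchanges nucleotide on BiP, had 59.2, 65.8 and 63.5 TPM in untreated NTC and 82.3, 75.98 and 79.6 TPM in untreated DKO libraries. With IFNγ these were 68.1, 66.3 and 69.6 against 87.9, 88.3 and 85.3 TPM. The rise was 0.33 and 0.35 (adjusted p = 0.000129 and 6.45e-05), with no overlap.

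*Sdf2l1*, which works with the J-domain protein ERdj3, showed the largest DKO-over-NTC difference of the set in cells with IFNγ. It was at 43.5, 57.1 and 55.2 TPM in untreated NTC and 76.6, 68.9 and 74.2 TPM in untreated DKO, and at 62.2, 44.2 and 53.3 against 84.9, 85.6 and 78.02 TPM with IFNγ. NTC libraries scattered more for this gene than for any other tested member, with coefficients of variation of 14.3% untreated and 16.9% with IFNγ, yet the lowest DKO library stood above the highest NTC library in each comparison (differences 0.50 and 0.64, SE 0.113, adjusted p = 0.00369 and 0.000542). *Manf*, a stress-induced protein that binds BiP and is partly secreted, ran at 151, 184 and 173 TPM in untreated NTC and 236, 217 and 242 TPM in untreated DKO. With IFNγ it was at 175, 189 and 158 TPM in NTC cells and 234, 228 and 253 TPM in DKO. Its differences were 0.46 and 0.45 (adjusted p = 0.000486 and 0.000435) with no overlap. In the GENCODE M21 annotation *Manf* overlaps *Dcaf1* on the opposite strand, a gene at up to 36.8 TPM, and unstranded libraries cannot assign reads of a shared stretch.

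*Dnajb11*, the gene of ERdj3 itself, and *Creld2*, a calcium-binding protein induced by ER stress, rose less. *Dnajb11* had 97.5, 98.4 and 102 TPM in untreated NTC and 116, 115 and 113 TPM in untreated DKO libraries (difference 0.21, adjusted p = 0.00127) and 111, 114 and 109.5 against 123, 119 and 129.8 TPM with IFNγ (difference 0.15, adjusted p = 0.00947). *Creld2* had 48.3, 52.05 and 51.9 against 62.98, 55.9 and 61.2 TPM without IFNγ (difference 0.24, adjusted p = 0.00358) and 54.05, 50.7 and 55.1 against 64.7, 65.4 and 63.1 TPM with it (difference 0.27, adjusted p = 0.00126). Neither gene's groups overlapped.

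The other 4 chaperones were not called. For *Hsp90b1*, at 666, 719 and 711 TPM in untreated NTC and 719, 731 and 740.2 TPM in untreated DKO, the 95% intervals of the difference were -0.060 to 0.19 without and -0.18 to 0.066 with IFNγ. Those of the J-domain protein gene *Dnajc3*, at 53.98 to 69.5 TPM over the 12 libraries, were -0.033 to 0.20 and -0.055 to 0.17, and those of *Hspa13*, an HSP70 relative of the ER at 28.8 to 38.3 TPM, -0.25 to 0.10 and -0.29 to 0.061. *Dnajb9*, a BiP cofactor induced by IRE1 and XBP1, was the least precise, with -0.24 to 0.25 and -0.11 to 0.39 at 17.8, 16.2 and 18.8 TPM in untreated NTC and 15.2, 20.4 and 17.6 TPM in untreated DKO libraries. With the trend of GC content and length removed, *Dnajb9* and *Dnajc3* passed with IFNγ (differences 0.30 and 0.15, adjusted p = 0.0191 and 0.0213), as did *Hspa13* without replicate 3 of DKO with IFNγ (difference -0.22, adjusted p = 0.0123).

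The oxidative folding enzymes did not move as one. *Ero1l* (chr14:45283087-45318771, minus strand), known to be induced by hypoxia as well as by ER stress, fell to 66.7% of the NTC mean without and 71.2% with IFNγ. Its libraries held 569.9, 498 and 543 TPM in untreated NTC, 359, 372 and 343 TPM in untreated DKO, 528, 539 and 548 TPM in NTC with IFNγ and 369, 352 and 430.2 TPM in DKO with IFNγ. No DKO library reached the lowest NTC library, and the gene fell by 0.58 (SE 0.067, adjusted p = 2.07e-05) and by 0.49 (SE 0.067, adjusted p = 7.22e-05) on the log2 scale. Its relative *Ero1lb*, the scarcest tested member at 1.98, 2.18 and 1.93 TPM in untreated NTC and 2.47, 2.37 and 2.56 TPM in untreated DKO, had a difference of 0.19 that was not called (adjusted p = 0.156) and one of 0.34 with IFNγ that was (adjusted p = 0.0148). At this level the added 1 TPM shrinks the difference, and the call was lost without replicate 2 of NTC with IFNγ or replicate 3 of DKO with IFNγ (adjusted p up to 0.0613).

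*Pdia4*, the isomerase ERp72, rose from 182, 210.1 and 201 TPM in untreated NTC to 243, 247 and 248 TPM in untreated DKO (difference 0.32, adjusted p = 0.000405). With IFNγ it was at 222, 226 and 237 TPM in NTC cells and 262, 256 and 280.1 TPM in DKO (difference 0.22, adjusted p = 0.00474), without overlap in either comparison. *Pdia6*, the isomerase P5, had 262, 296 and 294 against 321, 323 and 327 TPM without IFNγ, a rise of 0.19 (adjusted p = 0.00884). With IFNγ the libraries overlapped, and the difference of 0.059 was not called (adjusted p = 0.355), though at the same listed total it was 0.15 (adjusted p = 0.0302). *P4hb*, the most abundant member, lay at 687, 750.4 and 735 TPM in untreated NTC and 739, 723 and 721 TPM in untreated DKO. Its groups overlapped, and the intervals of its difference, -0.070 to 0.085 and -0.081 to 0.073, were among the narrowest of the set.

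Genes of ER-associated degradation went both ways. Without IFNγ 4 of its 11 tested genes were higher and 5 lower, beside 17.0% and 19.4% of all tested genes. With IFNγ 3 were higher and 6 lower, beside 19.5% and 23.9%. *Herpud1* (chr8:94386438-94395377, plus strand), a membrane scaffold of the ubiquitin ligase complex and itself a known stress-response gene, was at 162, 154 and 156 TPM in untreated NTC and 107, 108 and 102 TPM in untreated DKO libraries. With IFNγ it was at 151, 148 and 153 TPM in NTC cells and 106, 110.0 and 105 TPM in DKO. Its libraries agreed closely within each group and were far apart between genotypes, and the fall by 0.57 (SE 0.0388, adjusted p = 2.41e-07) and by 0.49 (SE 0.0388, adjusted p = 8.19e-07) gave the lowest adjusted p of any member in both comparisons.

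The ligase and its adaptor moved apart. *Syvn1* encodes the ubiquitin ligase HRD1, and *Sel1l* the adaptor that holds it together with its lectins. *Syvn1* was at 22.4, 24.5 and 22.7 TPM in untreated NTC and 27.1, 25.8 and 27.6 TPM in untreated DKO (difference 0.20, adjusted p = 0.0151), and at 21.6, 22.3 and 20.7 against 27.9, 29.9 and 26.6 TPM with IFNγ (difference 0.37, adjusted p = 0.000245). *Sel1l* was at 62.01, 52.2 and 54.1 against 43.3, 44.5 and 45.7 TPM without IFNγ and at 56.8, 57.5 and 56.2 against 45.95, 41.9 and 47.4 TPM with it, a fall by 0.32 (adjusted p = 0.00131) and by 0.33 (adjusted p = 0.00100). Neither gene overlapped between genotypes. The 91 bases in which *Syvn1* meets *Mrpl49* (up to 47.7 TPM) on the opposite strand cannot be assigned in these libraries, and its call without IFNγ was lost when replicate 1 or 3 of untreated NTC or replicate 3 of untreated DKO was left out (adjusted p up to 0.0597).

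The 3 EDEM genes, whose products trim mannose from misfolded glycoproteins, gave 3 different patterns. *Edem1* rose from 44.98, 53.7 and 54.3 TPM in untreated NTC to 71.9, 66.4 and 71.6 TPM in untreated DKO, and with IFNγ stood at 55.2, 54.5 and 55.9 TPM in NTC cells and 79.1, 74.98 and 78.8 TPM in DKO (differences 0.45 and 0.48, adjusted p = 0.00012 and 5.78e-05). *Edem2* was at 40.4, 43.2 and 40.6 against 31.9, 33.7 and 31.4 TPM without IFNγ and at 42.7, 41.6 and 41.1 against 32.4, 36.1 and 35.4 TPM with it, falling by 0.35 (adjusted p = 0.000196) and by 0.27 (adjusted p = 0.00120). *Edem3* had 21.8, 21.97 and 22.1 TPM in untreated NTC and 23.9, 24.7 and 25.99 TPM in untreated DKO, a rise of 0.17 (adjusted p = 0.0274), but overlapped between genotypes with IFNγ (difference -0.025, adjusted p = 0.740). The *Edem3* call was also lost without any 1 of the 3 untreated NTC libraries, or without replicate 2 or 3 of untreated DKO (adjusted p up to 0.114).

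Among the channel and lectin genes the differences were smaller and mostly downward. *Derl1*, a derlin of the retrotranslocation channel, was at 118, 111 and 119 TPM in untreated NTC and 102, 103 and 101 TPM in untreated DKO, and at 128, 125 and 128 against 110.0, 106 and 104 TPM with IFNγ. It fell by 0.18 (adjusted p = 0.00297) and by 0.25 (adjusted p = 0.000277) without overlap. *Derl2*, its relative, ran from 47.97 to 55.3 TPM over the 12 libraries and overlapped in both comparisons, with intervals of -0.11 to 0.085 and -0.14 to 0.054.

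*Os9* and *Erlec1* encode lectins that read trimmed glycans. *Os9* was at 60.6, 56.7 and 57.3 TPM in untreated NTC and 52.8, 49.3 and 52.4 TPM in untreated DKO and fell by 0.17 (adjusted p = 0.0112), and with IFNγ by 0.13, at 59.4, 57.9 and 56.6 against 50.5, 54.2 and 53.97 TPM (adjusted p = 0.0385). Its first call was lost under 3 of 20 other settings, at the same listed total (adjusted p = 0.0555) and without replicate 1 of untreated NTC or replicate 2 of untreated DKO (adjusted p = 0.0516 and 0.0554). Its second call was lost under 9 of 20 and the adjusted p reached 0.460 with libraries scaled to the same listed total. *Erlec1* had differences of -0.12 (adjusted p = 0.202) and, with IFNγ, -0.21 (adjusted p = 0.0239), and its libraries with IFNγ overlapped, 38.6, 45.3 and 43.6 TPM in NTC cells and 34.9, 34.9 and 39.8 TPM in DKO. This call was lost under 8 of 20 settings, the difference being -0.050 (adjusted p = 0.522) with the trend of GC content and length removed, and over 23562 bases the gene lies opposite to *Asb3* (up to 13.7 TPM), where unstranded reads cannot be assigned. *Vcp*, the ATPase that pulls substrates out of the membrane, was among the 5 most abundant members and rose from 345, 366 and 348 TPM in untreated NTC to 403, 401 and 404 TPM in untreated DKO. With IFNγ it was at 380.4, 389 and 393 TPM in NTC cells and 434, 424 and 438 TPM in DKO, and the groups were separate in both (differences 0.19 and 0.16, adjusted p = 0.000728 and 0.00245).

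At the entry and exit of the ER, *Sec61a1*, the pore of the translocon, rose from 189.8, 199 and 199.8 TPM in untreated NTC to 226, 215 and 223 TPM in untreated DKO (difference 0.17, adjusted p = 0.00579) and by 0.20 with IFNγ, 204, 199 and 217 against 234, 245 and 233 TPM (adjusted p = 0.00195). *Sec24d*, a cargo adaptor of the COPII coat, had 26.4, 29.5 and 28.5 TPM in untreated NTC and 36.9, 34.7 and 35.5 TPM in untreated DKO. With IFNγ it had 27.1, 29.2 and 28.3 against 35.05, 37.6 and 36.04 TPM. The differences of 0.34 and 0.35 (adjusted p = 0.000334 and 0.000201) came without overlap. *Ssr1*, a subunit of the translocon-associated protein complex, was at 125, 128 and 127 against 113, 107 and 114 TPM without IFNγ and fell by 0.19 (adjusted p = 0.00552), and with IFNγ by 0.23, at 137, 145 and 129 against 117, 114 and 118 TPM (adjusted p = 0.00109). *Sec61b*, the small translocon subunit, ran from 274 to 337 TPM, overlapped between genotypes and was not called, with an adjusted p of 0.0864 without and 0.478 with IFNγ, although scaled to the same listed total it passed without IFNγ (difference 0.18, adjusted p = 0.0255).

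Set beside the promoter letters, 5 of the 9 tested members with ERSE or ERSE-II were higher in DKO cells without IFNγ (*Creld2*, *Dnajb11*, *Hspa5*, *Pdia6* and *Syvn1*) and 1 was lower (*Herpud1*). With IFNγ the count was again 5 higher, *Ero1lb* taking the place of *Pdia6*, and 1 lower. Of the 18 tested members whose windows held neither element, 8 were higher and 6 lower without IFNγ, and 7 higher and 6 lower with it. Of the 7 tested members with no window held, 3 were higher and 2 lower without IFNγ, and 3 higher and 3 lower with it. Among all 34 tested members 47.1% were higher and 26.5% lower without IFNγ, and 44.1% and 29.4% with it. Over all tested genes the shares were 17.0% and 19.4% without IFNγ, and 19.5% and 23.9% with it. No test was made of these counts.

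IFNγ itself moved the ER genes little. In NTC cells 7 of 34 members (20.6%) rose and none fell, against 7.31% and 4.78% of all tested genes, and the members that rose were the chaperone genes *Hsp90b1* and *Dnajb11*, the isomerase genes *P4hb*, *Pdia4* and *Pdia6*, and *Edem3* and *Vcp* of the degradation pathway. On the deposited scale *Hsp90b1* had the largest response, from 666, 719 and 711 TPM without to 819.6, 852 and 861 TPM with IFNγ. These libraries did not overlap, and the difference was 0.27 (SE 0.0575, adjusted p = 0.0143). *Edem3* went from 21.8, 21.97 and 22.1 to 26, 26.1 and 26.8 TPM (difference 0.25, adjusted p = 0.0160). With the trend of GC content and length removed *Hsp90b1* was at 0.16, below *Sec61b* at 0.21, and *Edem3* at 0.15 (adjusted p = 0.0510). The other 5 changed by 0.14 to 0.22, each with separate groups: *P4hb* stood at 687, 750.4 and 735 TPM without and 789, 801 and 799 TPM with IFNγ (difference 0.14, adjusted p = 0.0286). Above 0 lay 30 of the 34 differences (88.2%), beside 54.5% over all tested genes. Their median was 0.084 on the log2(TPM + 1) scale beside 0.019 over all tested genes. In limma 12 of the 34 had an unadjusted p under 0.05, a share close to that of all tested genes (3707 of 11663). These calls rest on few libraries: leaving out replicate 2 or replicate 3 of NTC with IFNγ left 0 of the 7 called, with adjusted p from 0.0521 to 0.0945, while calls over all genes fell from 1411 to 328 and 317. The differences themselves were kept there, 0.27 and 0.26 for *Hsp90b1* and 0.26 and 0.24 for *Edem3*. Leaving out replicate 1 or replicate 3 of untreated NTC left 3 or 2 members and 1017 or 351 genes called. Scaled to the same listed total, 4 of the 7 were called, and the higher share of all calls went from 60.5% to 45.1%, or to 48.8% when scaled by the median gene. The listed total was 844185 to 860268 TPM in untreated NTC and 866885 to 874612 TPM in NTC with IFNγ, and its part in these small differences was not tested.

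The sensors did not pass the test in NTC cells. *Atf6*, *Ern1* and *Eif2ak3* had differences of 0.038, 0.019 and 0.012, with 95% intervals of -0.10 to 0.18, -0.13 to 0.16 and -0.13 to 0.15. *Xbp1* had separate groups, 71.9, 77.3 and 80.7 TPM without and 81.7, 83.8 and 82.8 TPM with IFNγ, and an adjusted p of 0.134. *Hspa5*, the standard readout of ER stress, was at 430.3, 480.4 and 469 TPM without and 468, 463 and 453 TPM with IFNγ. These overlapped, and the interval of the difference was -0.10 to 0.12.

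**Figure D4:**
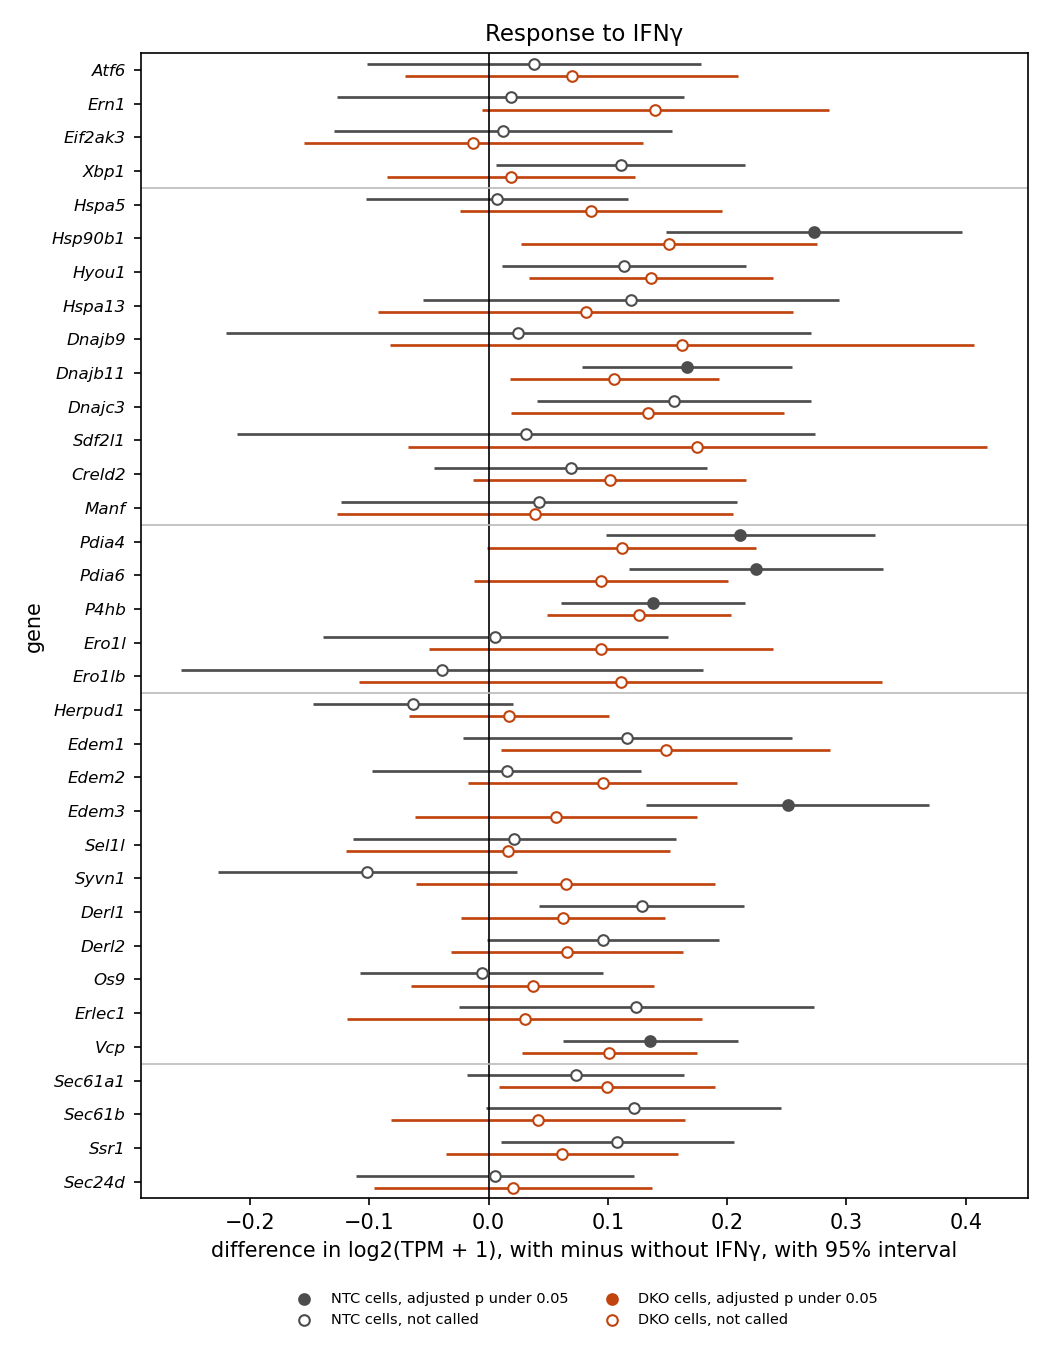
Difference in log2(TPM + 1) between cells with and without IFNγ for each tested gene (points) with its 95% interval (lines), NTC cells in grey and DKO cells in orange; filled points have an adjusted p under 0.05 in limma. Filled points are *Hsp90b1*, *Dnajb11*, *Pdia4*, *Pdia6*, *P4hb*, *Edem3* and *Vcp* in NTC cells, and no point is filled in DKO cells.

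In DKO cells limma called 0 of 34 members in either direction, against 0.677% of all tested genes higher and 0.103% lower. Its unadjusted p was under 0.05 for 8 of the 34 members, beside 1119 of 11663 tested genes. The lowest adjusted p was that of *P4hb*, at 739, 723 and 721 TPM without and 785, 795 and 802 TPM with IFNγ (difference 0.13, adjusted p = 0.196). The groups were separate there too. Again most differences, 33 of 34 (97.1%), were above 0, beside 53.9% over all tested genes. Their median was 0.090, beside 0.0082 over all tested genes. The member medians in NTC and DKO cells were 0.052 and 0.094 at the same listed total, beside -0.0097 and 0.0115 over all tested genes. With the trend of GC content and length removed they were 0.054 and 0.085, beside 0.0114 and 0.00776. *Hsp90b1* was at 719, 731 and 740.2 TPM without and 817, 732 and 891 TPM with IFNγ, an overlap through replicate 2 of the treated libraries, and the difference was 0.15 (adjusted p = 0.399). Without that library *Hsp90b1* alone was called (difference 0.22, adjusted p = 0.0384).

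A call in NTC and none in DKO cells does not show that the responses differ, and the difference between them was tested directly. None of the 34 members passed, against 0.0343% of all tested genes. Beside 1340 of 11663 tested genes, 1 of the 34 members had an unadjusted p under 0.05. That 1 was *Edem3*, whose response in DKO cells minus that in NTC cells was -0.19 on the log2 scale (95% interval -0.36 to -0.027, adjusted p = 0.417). For the other members called in NTC cells the interval was -0.30 to 0.053 for *Hsp90b1*, -0.28 to 0.021 for *Pdia6*, -0.26 to 0.060 for *Pdia4*, -0.18 to 0.063 for *Dnajb11*, -0.12 to 0.10 for *P4hb* and -0.14 to 0.070 for *Vcp*. *Syvn1*, called higher in DKO cells in both genotype comparisons, had an interval of -0.011 to 0.34, and *Atf6* one of -0.17 to 0.23. The same test covers the 4 members called in only 1 genotype comparison: for *Pdia6*, *Edem3*, *Ero1lb* and *Erlec1* its adjusted p was 0.481, 0.417, 0.685 and 0.714.

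Beyond the 35 members, 74 other genes of the same pathways, in 6 lists, were all past the filter. In DKO against NTC cells 12 of them (16.2%) were higher and 18 (24.3%) lower without IFNγ, beside the 17.0% and 19.4% of all tested genes, and 13 (17.6%) higher and 23 (31.1%) lower with it, beside 19.5% and 23.9%. The counts in single lists that follow are to be read against the same shares. The largest falls were among the partners and readouts of the sensors, of which 6 of 13 were lower and none higher without IFNγ, and 7 lower and 2 higher with it. *Trib3*, a pseudokinase gene induced through ATF4, was at 228, 194 and 209 TPM in untreated NTC and 64.8, 63.96 and 59.9 TPM in untreated DKO libraries, and at 176, 177 and 172 against 61.2, 68.4 and 58.1 TPM with IFNγ. *Ppp1r15a*, which encodes the GADD34 subunit that reverses eIF2α phosphorylation, was at 107, 63.96 and 69.5 against 23.96, 23.6 and 25.2 TPM without IFNγ, replicate 1 of untreated NTC standing above the other 2, and at 64.1, 59.6 and 63.2 against 23.7, 23.2 and 21.2 TPM with it. All DKO libraries lay below all NTC libraries for both genes, which fell by 1.72 (adjusted p = 1.16e-09) and by 1.65 (adjusted p = 1.19e-06) without IFNγ, and by 1.47 and by 1.42 with it (adjusted p = 5.87e-09 and 3.73e-06). Named after their values were seen, the PERK-branch factors *Atf4* and *Ddit3* (CHOP) fell by 0.90 and by 1.18 without IFNγ (adjusted p = 5.22e-10 and 1.46e-07): *Atf4* was at 838, 831 and 834 TPM in untreated NTC and 449, 448 and 440.2 TPM in untreated DKO libraries, and *Ddit3* at 521, 397 and 408 against 189, 197 and 193 TPM. *Eif2ak3* RNA was thus higher, and the RNA of these 4 genes lower, in the same DKO libraries. Of the 4, *Trib3*, *Ppp1r15a* and *Ddit3* can be induced by PERK and other eIF2α kinases through ATF4.

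The remaining lists were mixed. *Fkbp14*, a prolyl isomerase of the ER, rose by 0.74 and 0.63, from 7.88, 6.87 and 8.26 TPM in untreated NTC to 13.9, 13.7 and 12.8 TPM in untreated DKO. *Sil1*, the other exchange factor of BiP, fell by 0.40 (adjusted p = 0.00219) and by 0.52 (adjusted p = 0.000298), opposite in sign to *Hyou1*. Of 14 other folding factors 3 were higher and 2 lower without IFNγ, and 3 higher and 3 lower with it.

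Of 15 other degradation genes 3 were higher and 6 lower without IFNγ and 2 higher and 5 lower with it. *Ube2j1*, an ER ubiquitin-conjugating enzyme, fell by 0.34 with IFNγ (adjusted p = 0.00162). Of 9 genes of the lectin chaperone cycle 2 were higher and 1 lower in each comparison, *Calr* (calreticulin) rising by 0.18 without IFNγ and *Prkcsh*, the beta subunit of glucosidase II, by 0.32 with it. The 1 lower with IFNγ was *Pdia3*, which fell by 0.24 (limma adjusted p = 0.00643). Of the translocon, signal peptidase and translocon-associated genes 3 of 14 were lower and none higher without IFNγ, and 6 lower and 1 higher with it, and *Spcs1*, a signal peptidase subunit, fell by 0.19 and by 0.38. Of 9 COPII genes 4 were higher without IFNγ, and 3 higher and 1 lower with it, led in both by *Sec24b* (differences 0.23 and 0.27).

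With IFNγ 16 of these 74 genes (21.6%) rose and 3 (4.05%) fell in NTC cells, beside 7.31% and 4.78% of all tested genes. *Pdia3*, the isomerase ERp57 of the MHC class I loading complex, rose from 389, 437 and 432 to 494, 532 and 517 TPM (difference 0.30, adjusted p = 0.0126), *Spcs1* by 0.28, and *Tmx1*, a membrane thioredoxin, by 0.24. Of the 14 translocon and signal peptidase genes 6 rose, as did 3 of 9 COPII genes, *Sec23a* by 0.26 and *Sar1a* by 0.22. *Trib3* fell by 0.26 (adjusted p = 0.0256). In DKO cells 1 of the 74 was called, *Fkbp11*, an ER prolyl isomerase, which rose by 0.34 (adjusted p = 0.0345) from 31.8, 37.6 and 32.9 to 43.2, 41.1 and 45.7 TPM. For the difference between the responses limma called 0 of the 74. The unadjusted p was under 0.05 for 9 of the 74, a share close to that of all tested genes (1340 of 11663).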

How the data were processed

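Poly(A) RNA was sequenced from 12 unstranded libraries as 50-bp paired reads, with about 40 M reads per sample stated in the study's methods. The deposited values are TPM per gene, which the authors estimated with RSEM 1.2.4 calling Bowtie on a merged Ensembl 71, UCSC and MISO annotation of mm10. TPM keep no read depth, so counting error is unknown here, and the listed values summed to 805782 to 874612, less in DKO than in NTC libraries.

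log2(TPM + 1) was fitted over all 12 libraries and 4 groups with limma 3.58.1 in R 4.3.3 (eBayes with trend) for the 11663 genes at 1 TPM or more in at least 3 libraries, with Benjamini-Hochberg adjustment over all of them and a threshold of 0.05. A difference on this scale understates that of low genes. Each IFNγ response shares 3 libraries with each genotype comparison, and their values are not independent. All members are named, and of each further list at most 2 called genes a comparison, by size of difference, except items not reported here. Members and lists were chosen with earlier results of these data known. Alternatives were a pseudocount of 0.1 TPM, no filter, the replicate number as a block, only the libraries of a comparison, 2 other scalings, removal of a trend with GC content and length (with and without the block), and leaving out each library. Gene positions and overlaps are from GENCODE M21 (GRCm38), promoter windows from RefSeq (GRCm38.p6).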

Additional observations from a re-analysis of the deposited data

How the results depend on the processing

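The counts of members called between DKO and NTC cells stayed within 1.5 times of those given under every setting tried: 14 to 17 higher and 8 to 9 lower without IFNγ, and 13 to 15 higher and 8 to 11 lower with IFNγ when 1 library was left out, and 17 higher and 8 lower in both with libraries scaled to the same listed total. No difference called in any setting changed sign. The count of members higher with IFNγ in NTC cells (7) fell to 4 at the same listed total, all among the 7, and to 4, of which 3 were among the 7, with the trend of GC content and length removed in a fit with the replicate block. It ran from 0 to 9 with 1 library left out: 3 and 2 without replicate 1 and 3 of untreated NTC, 0 without replicate 2 or 3 of NTC with IFNγ, and 9, with *Dnajc3* and *Derl1* added, without replicate 2 or 3 of DKO with IFNγ. Calls over all genes moved the same way, from 1411 to 1017 and 351, to 328 and 317, and to 2023 and 1952. The cause was not tested. In DKO cells it ran from 0 to 1. The labels give all groups the same replicate numbers, but deviations of same-numbered libraries from their group means correlated at only -0.179 to 0.182, with 4 of 18 pairs above 0.1, and those of different-numbered libraries at -0.219 to 0.213, so the numbers were not taken to pair libraries. With the replicate number as a block 7 members were higher with IFNγ in NTC cells, 16 higher and 9 lower in DKO cells without IFNγ, and 15 higher and 9 lower with it, the call lost being *Os9* (adjusted p = 0.0576). Of 2040 single values with 1 library left out, 50 lost and 8 gained a call. Of 1326 under the other settings, 21 lost and 11 gained one. Both totals hold every tested member and comparison, and a value not called in the main fit could not lose a call. A left-out library outside a comparison also leaves its difference unchanged. The totals therefore do not give the rate of loss among the calls. In the genotype comparisons the largest SE among the members were those of *Dnajb9* (0.114) and *Sdf2l1* (0.113). *Ero1lb*, the scarcest tested member, followed (0.102), on a scale where the added 1 TPM shrinks its values. The TPM scale gives no depth from which to set a detection limit.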
